A study of Mus musculus with 23 samples.

Results

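Transcripts of 9 genes that mark mature migratory dendritic cells were followed in 23 MC38 tumors, out of 26869 genes in the deposited table. The genes were given by their symbols (Ccr7, Fscn1, Ccl17, Ccl22, Il12b, Cd40, Cd80, Cd86 and Relb) and found in the table by their Ensembl identifiers through a GENCODE mouse annotation. All 9 had a match. Ccl17 was at 0 counts in 2 tumors and Il12b in 1, and the others had counts in all 23. MC38 is a colon carcinoma cell line of C57BL/6 origin. It was injected under the skin of female F1 mice, 8 to 12 weeks old, each with C57BL/6J as one parental strain and 1 of 6 Collaborative Cross (CC) lines as the other. The CC is a panel of recombinant inbred mice with varied genomes, so every host shared a C57BL/6J chromosome set and was hybrid. When a tumor had reached 75 to 110 mm3 the host was given 200 µg of an antibody to PD-1 (aPD1, clone 29F.1A12) or of an isotype control antibody (clone 2A3), and the tumor was taken 48 h later for bulk RNA sequencing. The study's text names CC001F1, CC002F1 and CC075F1 as responder lines (R) and CC036F1, CC079F1 and CC080F1 as non-responder lines (NR); the sample labels give the line only. There were 6 R isotype, 6 R aPD1, 6 NR isotype and 5 NR aPD1 tumors, as 2 tumors for each line and antibody, except 1 for CC080F1 with aPD1. All groups carried the same tumor cells, so the groups differed by host line and antibody.

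Dendritic cells take up antigen in a tissue, mature, and travel by lymph to the draining node, where they prime T cells. During maturation they turn on the chemokine receptor CCR7, which guides them to the node, and the actin-bundling protein fascin. They also display the costimulatory proteins CD40, CD80 and CD86 and make cytokines and chemokines that act on T cells. RelB, a subunit of the transcription factor NF-kappa-B, is needed for the development and maturation of several dendritic cell types. None of these genes is used by dendritic cells alone: macrophages and B cells also carry CD40, CD80 and CD86, naive T cells and B cells carry CCR7, and many other cells make fascin and RelB. In bulk RNA, fewer cells of a type and less RNA per cell cannot be told apart, nor can the cells that carried a transcript.

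Library totals ranged from 14493982 to 71868238 counts, with 17 deep libraries (10 R, 7 NR) and 6 shallow ones (2 R, 4 NR) under 30000000. The values below are normalized counts, that is counts divided by a size factor for each library, unless stated otherwise. Markers of the cell type were present. The dendritic cell genes Flt3, Zbtb46 and Xcr1 had counts in all 23 tumors, and the summed level of 9 conventional dendritic cell markers was 10610 to 20040 in R and 7467 to 11220 in NR tumors. Sirpa, Irf8 and Itgax, which macrophages also express, made up most of that sum, with means of 7482, 1856 and 1302 over the 23 tumors beside 607 for Zbtb46 and 41.35 for Flt3. Flt3 and Zbtb46 themselves were not called between classes (log2 differences -0.28 and -0.17). Counts of Glycam1, a mucin of lymph node vessels, occurred in 3 tumors (CC002F1 isotype replicate 1, CC079F1 aPD1 replicate 1 and CC080F1 aPD1 replicate 1) and in none of the other 20. In those 3 tumors 5 B cell markers summed to 1168, 897 and 3507, against at most 281 elsewhere. For the 9 genes, calls that rest on these tumors are given with and without them. For the other lists this is done only where stated.

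The 9 genes did not move as one group. Cd40 and Cd86 were higher in tumors of R lines than of NR lines and, within R lines, higher after aPD1 than after isotype antibody. The other 7 genes, Ccr7 included, passed the test in none of the 6 comparisons with all tumors of the groups in the fit. Fscn1 and Relb had nearly the same level in every tumor.

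**Figure D1:**
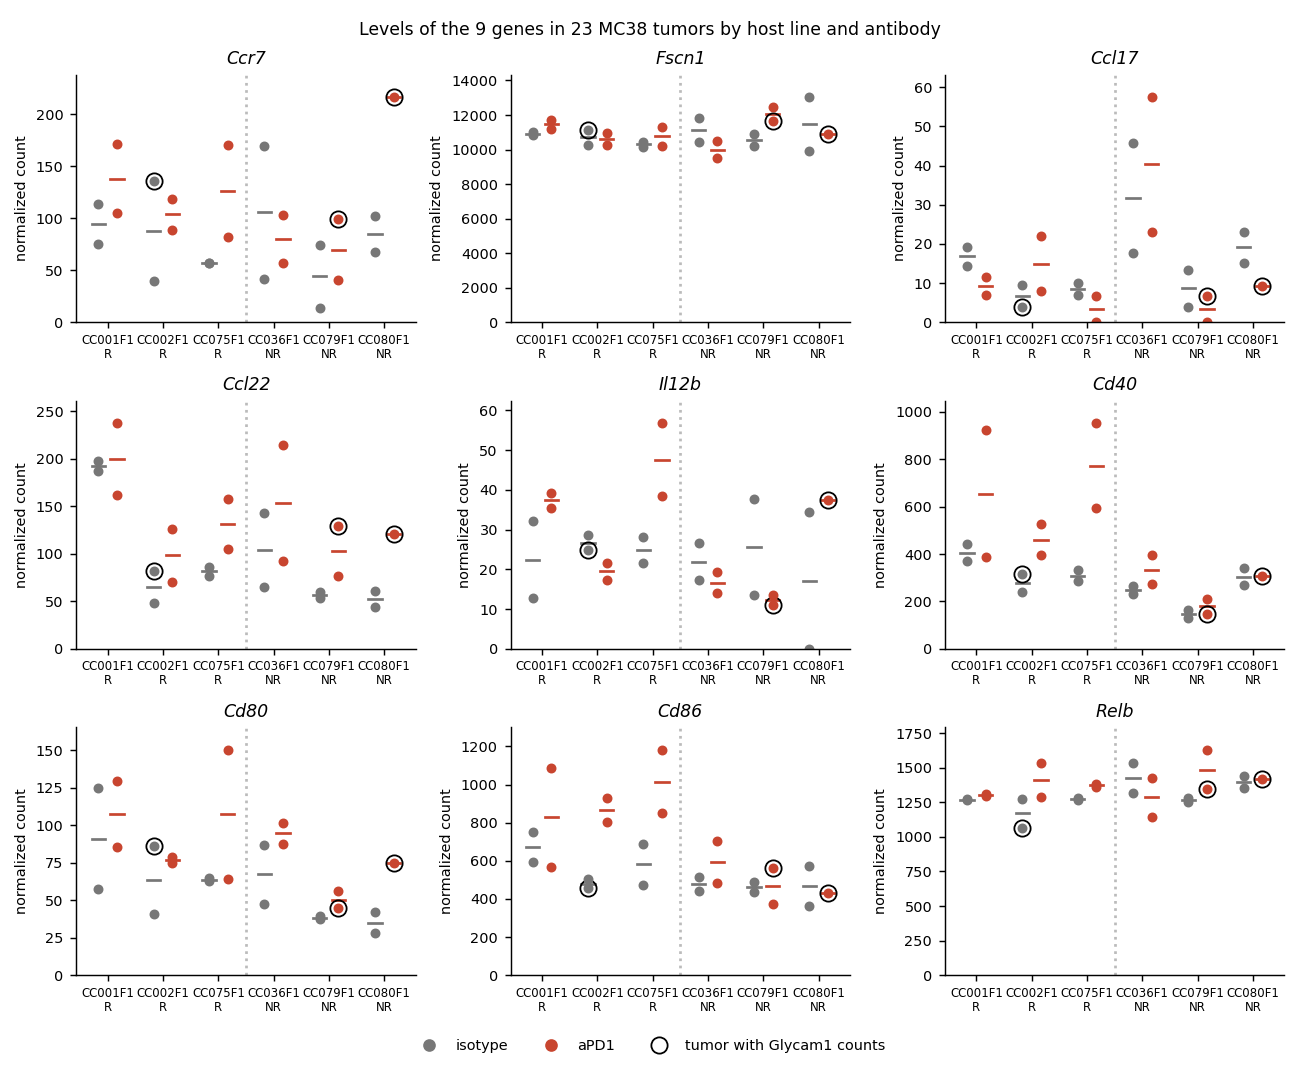
Normalized counts of the 9 genes (vertical axes, each from 0) in each tumor, by host line (R lines left of the dotted line, NR lines right) and antibody (gray isotype, red aPD1); short bars are means of a line and antibody, and black rings mark the 3 tumors with Glycam1 counts. Cd40 and Cd86 reach 951 and 1182 in CC075F1 aPD1 replicate 1, while Fscn1 stays between 9501 and 13040.

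Levels of different genes were compared per base of exon, as counts per merged exon length scaled to the same total in each library (TPM). Fscn1 was the highest of the 9 at 280.5 ± 21.2 (SD, n = 23 for every gene), and its lowest tumor (233) was above the highest Relb value (33.5). Relb followed at 26.7 ± 2.84, Cd86 at 13.1 ± 4.78 and Cd40 at 8.40 ± 4.85. The ranges of Relb and Cd86 and of Cd86 and Cd40 overlapped between tumors. Ccl22 (3.75 ± 1.84) and Ccr7 (3.74 ± 2.01) could not be ordered. Ccl17 had 2.18 ± 2.00, Cd80 1.51 ± 0.655 and Il12b 1.00 ± 0.505, each within the spread of the next. The coefficient of variation of the normalized counts between tumors was 7.67% for Fscn1 and 9.26% for Relb, 35.9% for Cd86, 43.6% to 57.3% for Cd80, Il12b, Ccl22, Ccr7 and Cd40, and 93.3% for Ccl17. Ccl17 rested on few reads, with 0 counts in 2 tumors and at most 95 in any.

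For R against NR over all tumors, DESeq2 with antibody as a term called 2 of the 9 genes (Cd40 and Cd86, both higher in R), against 14.4% of the 17643 genes tested in either direction and 7.66% called higher. The median log2 difference of the 9 was 0.41 and that of all genes tested was 0.00. In isotype tumors alone 0 of the 8 genes with an adjusted p were called, against 5.53% of all genes tested. At an unadjusted p under 0.05 there were 2 of the 9 (Cd40 and Cd86) in DESeq2 and 1 in edgeR, which called 0 as well. In aPD1 tumors alone Cd40 and Cd86 were called, against a background of 7.93% (5.94% higher). edgeR called both there too, and limma with a random line effect called 0 of 9 (2 at an unadjusted p under 0.05).

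For aPD1 against isotype within R lines, with line as a term, Cd40 and Cd86 were called of 8 genes with an adjusted p, against a background of 5.26% (4.85% higher). edgeR called neither of them there. The 9 genes had a median log2 difference of 0.43, and all genes tested had -0.01. Within NR lines 0 of 9 were called, with a background of 0.0448%. The difference of the aPD1 effect between R and NR lines called 0 of 9, with a background of 0.0342%. In DESeq2, Ccl22 and Cd80 had an unadjusted p under 0.05 in the first of these and Cd40 and Cd86 in the second. edgeR also had 2 of 9 in each. The comparisons share tumors, since each tumor enters several of them, so their values are set side by side and not counted as separate evidence.

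**Figure D2:**
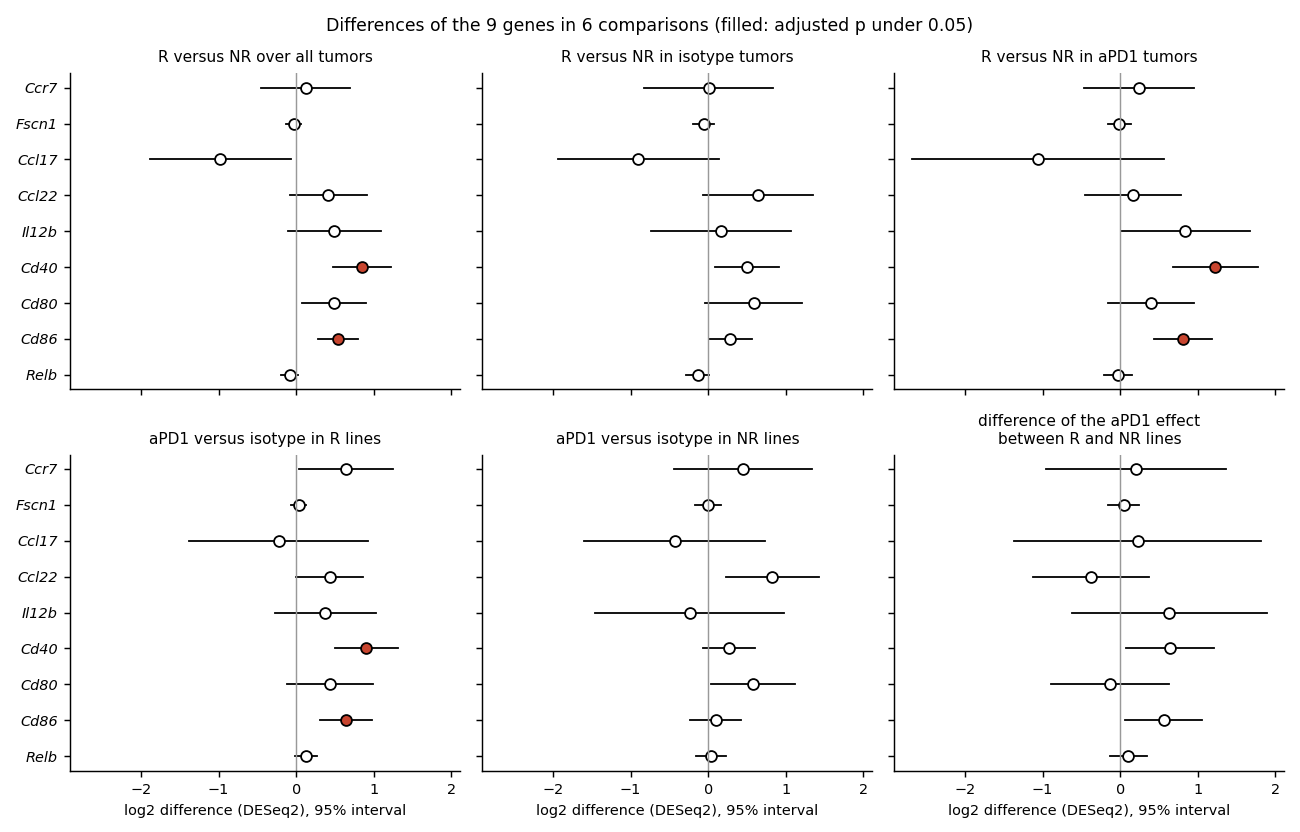
Log2 differences of the 9 genes (points) with 95% intervals (lines) from DESeq2 in the 6 comparisons; filled points passed an adjusted p of 0.05. Only Cd40 and Cd86 are filled, in R versus NR over all tumors (0.85 and 0.54), in aPD1 tumors (1.23 and 0.82) and for aPD1 within R lines (0.91 and 0.65).

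Of the 2 genes of migration, Ccr7 (ENSMUSG00000037944) encodes the receptor for the chemokines CCL19 and CCL21 and lies on chromosome 11 from 99144196 to 99155077, minus strand (GRCm38, as are all positions given). In R isotype tumors it ranged from 40.0 to 136 with a median of 66.1, and in R aPD1 tumors from 82.2 to 171 with a median of 112. In NR isotype tumors it ranged from 13.9 to 170 (median 71.0). The 5 NR aPD1 tumors had 56.8 and 103 in CC036F1, 99.1 and 40.3 in CC079F1 and 216 in CC080F1. The groups overlapped throughout, and the highest tumor of all, CC080F1 aPD1 replicate 1, was one of the 3 with Glycam1 counts.

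Ccr7 did not differ detectably between R and NR tumors (log2 difference 0.12 ± 0.29 SE, adjusted p = 0.846, 95% interval -0.45 to 0.70). With aPD1 it had a log2 difference of 0.64 ± 0.31 in R lines (adjusted p = 0.267) and 0.45 ± 0.45 in NR lines (adjusted p = 1.00). Both values depended on the tumors with Glycam1 counts. Without CC002F1 isotype replicate 1, the R value was 0.98 with an adjusted p of 0.0115 in DESeq2 and passed the test. Without the 2 NR tumors concerned, the NR value turned to -0.33 with an adjusted p of 0.935. In the 3 tumors with Glycam1 counts, Ccr7 had 136, 99.1 and 216 beside 59.4, 39.0 and 115 for Flt3 and 218, 153 and 329 for the B cell receptor component Cd79a. The part of B cells or lymph node cells in these Ccr7 values was not tested.

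Fscn1 (ENSMUSG00000029581; chromosome 5, 142960343 to 142973185, plus strand) encodes fascin, which bundles actin in the long processes of mature dendritic cells and in moving cells of other kinds. Its lowest value was 9501 in CC036F1 aPD1 replicate 2 and its highest 13040 in CC080F1 isotype replicate 2, a range of 1.37-fold over 23 tumors. R and NR tumors had means of 10790 ± 515 (SD, n = 12) and 11040 ± 1103 (n = 11). The log2 difference between classes was -0.03 ± 0.05 (95% interval -0.13 to 0.06, adjusted p = 0.739). The change with aPD1 was 0.03 ± 0.05 in R and -0.01 ± 0.09 in NR lines (adjusted p = 0.823 and 1.00). Fscn1 thus varied less than any of the other 8 genes.

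The chemokine genes Ccl22 (ENSMUSG00000031779) and Ccl17 (ENSMUSG00000031780) encode the ligands of the receptor CCR4, by which mature dendritic cells draw regulatory and other T cells. They are neighbors on chromosome 8, plus strand, with Ccl22 from 94745590 to 94751699 and Ccl17 from 94810453 to 94812036, 58754 bases apart. RefSeq promoter windows (GRCm38.p6) were at hand for 5 of the 9 genes (Fscn1, Ccl22, Ccl17, Il12b and Cd80); Ccr7, Cd40, Cd86 and Relb had none. The windows of the 2 chemokines are shown because these neighbors with a shared receptor were highest in different tumors. They run from chr8:94745434-94745589 for Ccl22 and chr8:94810203-94810452 for Ccl17 and end at the base before the annotated gene.
Ccl22: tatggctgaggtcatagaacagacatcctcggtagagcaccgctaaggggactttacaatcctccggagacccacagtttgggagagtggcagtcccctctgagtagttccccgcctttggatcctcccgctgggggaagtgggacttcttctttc
Ccl17: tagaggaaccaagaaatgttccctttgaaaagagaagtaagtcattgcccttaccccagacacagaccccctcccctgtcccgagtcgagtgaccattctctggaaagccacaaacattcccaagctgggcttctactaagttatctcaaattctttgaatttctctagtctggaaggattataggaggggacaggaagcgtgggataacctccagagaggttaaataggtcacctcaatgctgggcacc
The kappa-B motif, bound by NF-kappa-B, was searched on both strands of the 250 bases before the start. It was in 0 of the 5 windows and in 3.90% of 32851 RefSeq windows of that length. This says only that the searched form of the motif is not in these windows, as in most RefSeq windows. It says nothing of whether NF-kappa-B binds there.

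Ccl22 was highest in CC001F1, at 198 and 187 in isotype and 162 and 237 in aPD1 tumors, and in CC036F1 aPD1 replicate 2 (215). The R isotype range was 48.6 to 198 (median 84.3) and the R aPD1 range 70.1 to 237 (median 142). NR isotype tumors ranged from 43.5 to 143 (median 60.2), and the NR aPD1 tumors from 76.2 to 215 (median 121). Mean levels were higher after aPD1 in all 6 lines, by 0.03 on the log2 scale in CC001F1, 0.57 in CC002F1, 0.66 in CC075F1, 0.54 in CC036F1, 0.80 in CC079F1 and 1.21 in CC080F1. Every aPD1 tumor was above every isotype tumor of its line in CC075F1, CC079F1 and CC080F1, and the ranges overlapped in the other 3 lines. The CC080F1 change rests on 1 aPD1 tumor (121), which had Glycam1 counts, as did CC079F1 aPD1 replicate 1 (130). The other CC079F1 aPD1 tumor had 76.2, against 53.7 and 59.5 with isotype antibody. CC002F1 isotype replicate 1, also with Glycam1 counts, had 82.2. In the fits, aPD1 changed Ccl22 by 0.43 ± 0.22 in R lines (adjusted p = 0.317) and 0.82 ± 0.31 in NR lines (unadjusted p = 0.00715, adjusted p = 0.651), so neither passed. R against NR was 0.41 ± 0.25 (adjusted p = 0.293).

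Ccl17 had another order of lines. It was highest in CC036F1, with 45.6 and 17.7 in isotype and 23.1 and 57.5 in aPD1 tumors, and lowest in CC075F1 and CC079F1, each with 1 tumor at 0 counts. A count of 0 allows up to 3 counts in such a library (counting error only), so these zeros are limits of depth. The mean was 9.94 ± 6.22 over R and 19.6 ± 17.6 over NR tumors, with a log2 difference of -0.98 ± 0.46 (adjusted p = 0.147), and the groups overlapped. Without CC036F1 aPD1 replicate 2, the highest tumor, the difference was -0.55. With aPD1 the mean was lower in 4 of 6 lines and higher in CC002F1 and CC036F1. The aPD1 differences of -0.23 ± 0.59 in R and -0.43 ± 0.60 in NR lines did not pass, and DESeq2 gave no adjusted p for the first.

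Their receptor and the CCR7 ligands were scarce. Ccr4 was between 0 and 23.8 in every tumor, and none of Ccl19, Ccl21a, Ccr4 and the decoy receptor gene Ackr4 was called in any comparison. Ccl21a, which has near-identical copies in the mouse genome, was 186 to 334 in the 3 tumors with Glycam1 counts and at most 8.18 in the other 20.

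Il12b (ENSMUSG00000004296; chromosome 11, 44400063 to 44414033, plus strand) encodes the p40 chain shared by interleukins 12 and 23, through which dendritic cells steer T cells toward interferon-gamma production. R isotype tumors had 12.9 to 32.0 (median 26.5) and R aPD1 tumors 17.4 to 56.7 (median 37.0). NR isotype tumors had 0 to 37.7 (median 21.95), and the NR aPD1 tumors 19.3 and 13.9 in CC036F1, 11.02 and 13.4 in CC079F1 and 37.5 in CC080F1. In aPD1 tumors 3 of 6 R values were above all NR values and 3 of 5 NR values below all R values. The share of all genes with such a separation was not computed. The log2 difference in aPD1 tumors was 0.84 ± 0.43 (adjusted p = 0.254), and 0.49 ± 0.30 over all tumors (adjusted p = 0.299). Without CC080F1 aPD1 replicate 1 the aPD1 value was 1.23 and passed at an adjusted p of 0.0471 in DESeq2. The change with aPD1 was 0.38 ± 0.33 in R and -0.24 ± 0.62 in NR lines (adjusted p = 0.644 and 1.00).

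Of the other 8 genes of the interleukin 12 family and its receptors, 4 were called higher in R over all tumors: Il12rb2 (log2 difference 1.91, adjusted p = 7.605e-06) and Stat4 (1.06, adjusted p = 1.643e-05), the receptor chain and transducer on the T cell side, and Ebi3 (0.76, adjusted p = 2.09e-04) and Il27 (1.24, adjusted p = 0.00315), the 2 chains of interleukin 27. Among all genes tested 7.66% were called higher. All 4 also passed in edgeR. The median of the 8 was 0.52. Il12a, the p35 chain that pairs with p40 in interleukin 12, had -0.88 ± 0.36 (adjusted p = 0.0844). Within R lines aPD1 raised 3 of the 8 in DESeq2, Ebi3 (0.60), Il27 (1.40) and Il12rb1 (0.61), with adjusted p = 0.0359, 0.0118 and 6.84e-04, and lowered none (37.5% of the list, beside 4.85% of all genes called higher). Without the tumors with Glycam1 counts 2 of the 8 were called for aPD1 in R lines. Both chains of interleukin 27 were thus higher where neither chain of interleukin 12 passed, and the differences between the 2 cytokines were not tested.

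The costimulatory genes held both members that passed the test. Cd40 (ENSMUSG00000017652; chromosome 2, 165055627 to 165072948, plus strand) encodes the receptor by which CD40 ligand on T cells activates dendritic cells, macrophages and B cells. It ranged from 240.0 to 441 (median 323) in R isotype tumors and from 386 to 951 (median 559) in R aPD1 tumors. NR isotype tumors had 129 to 339 (median 248), and the NR aPD1 tumors had 396 and 272 in CC036F1, 148 and 211 in CC079F1 and 308 in CC080F1. The highest were CC075F1 aPD1 replicate 1 (951) and CC001F1 aPD1 replicate 2 (922), and all 4 CC079F1 tumors lay below every R tumor. Over all tumors 5 of 12 R values were above all NR values, with no share of all genes computed for this count.

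Cd40 was 1.81-fold higher in R tumors (log2 difference 0.85 ± 0.19, adjusted p = 3.47e-04). The line means were 369 to 540 in R and 163 to 305 in NR lines. The share of all genes whose line means part the classes was not computed. With the counts of a line summed, so that a line and not a tumor was the replicate (3 against 3), the difference was 0.87 ± 0.24 (adjusted p = 0.00852 in DESeq2). In that fit the isotype and aPD1 tumors of a line were added together, with no antibody term, so deeper libraries weighed more. In aPD1 tumors the difference was 2.34-fold (1.23 ± 0.28, adjusted p = 4.47e-04). In isotype tumors it was 0.50 ± 0.21 and did not pass (adjusted p = 0.142), but passed without CC080F1 isotype replicate 1 (0.65, adjusted p = 0.0251). After aPD1 it rose 1.87-fold in R lines (0.91 ± 0.21, adjusted p = 0.00203) and was 0.27 ± 0.17 in NR lines (adjusted p = 1.00). The mean was higher with aPD1 in all 6 lines, by 0.56, 0.73 and 1.29 in CC001F1, CC002F1 and CC075F1 and by 0.41, 0.28 and 0.03 in CC036F1, CC079F1 and CC080F1. The difference between the 2 effects was 0.64 ± 0.29 and did not pass (unadjusted p = 0.0250, adjusted p = 0.639), although it did without CC001F1 aPD1 replicate 1 (0.80, adjusted p = 0.0418).

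Cd86 (ENSMUSG00000022901; chromosome 16, 36603869 to 36666081, minus strand) encodes a ligand of CD28 and CTLA-4 on T cells. It ranged from 456 to 749 (median 551) in R isotype and from 568 to 1182 (median 889) in R aPD1 tumors. NR isotype tumors had 364 to 574 (median 465), and the NR aPD1 tumors had 702 and 485 in CC036F1, 563 and 372 in CC079F1 and 430 in CC080F1. In aPD1 tumors 5 of 6 R values were above every NR value, the exception being CC001F1 aPD1 replicate 1 at 568. For this count too, no share of all genes was computed.

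Cd86 was 1.46-fold higher in R tumors (0.54 ± 0.13, adjusted p = 9.10e-04), and 0.52 ± 0.08 with counts summed per line over both antibodies (adjusted p = 1.81e-08 in DESeq2, with no antibody term). In aPD1 tumors the difference was 1.76-fold (0.82 ± 0.19, adjusted p = 8.22e-04), and in isotype tumors 0.29 ± 0.14 without passing (adjusted p = 0.238). It rose 1.57-fold with aPD1 in R lines (0.65 ± 0.17, adjusted p = 0.00774). Without CC001F1 aPD1 replicate 2 the rise was 0.58 and the adjusted p 0.0580. In NR lines the change was 0.10 ± 0.16 (adjusted p = 1.00), with a 95% interval of -0.23 to 0.42. The difference of the effects was 0.56 ± 0.25 (unadjusted p = 0.0262, adjusted p = 0.643). In edgeR neither gene passed for aPD1 within R lines (adjusted p = 0.0698 for Cd40 and 0.0867 for Cd86), where edgeR called 0 of all genes and 2621 at an unadjusted p under 0.05. In limma with a random line effect neither passed in aPD1 tumors (adjusted p = 0.158 and 0.123).

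Cd80 (ENSMUSG00000075122; chromosome 16, 38455561 to 38496335, plus strand), the other ligand of CD28 and CTLA-4, was expressed at a lower level per base of exon than Cd86. It ranged from 41.0 to 125 (median 63.8) in R isotype, 64.2 to 150 (median 82.0) in R aPD1 and 28.2 to 86.6 (median 40.8) in NR isotype tumors. The NR aPD1 tumors had 87.3 and 102 in CC036F1, 44.9 and 56.0 in CC079F1 and 74.9 in CC080F1. The classes overlapped, with CC036F1 among the R values. R against NR was 0.49 ± 0.21 (unadjusted p = 0.0187, adjusted p = 0.0966), and without CC036F1 isotype replicate 2, the highest of its group, it was 0.61 and passed (adjusted p = 0.0246). The mean was higher with aPD1 in all 6 lines, by 0.31 to 0.62 in R and 0.38 to 1.101 in NR lines. The 1.101 belongs to CC080F1 and rests on 1 aPD1 tumor, which had Glycam1 counts. In CC079F1 the aPD1 tumors had 44.9 (with Glycam1 counts) and 56.0, against 37.2 and 39.65 with isotype antibody. The fits gave 0.43 ± 0.28 in R (adjusted p = 0.482) and 0.58 ± 0.28 in NR lines (adjusted p = 0.886). Unlike those of Cd40 and Cd86, the Cd80 estimate was the larger one in NR lines, and the difference of effects was -0.13 ± 0.39 (adjusted p = 1.00).

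**Figure D3:**
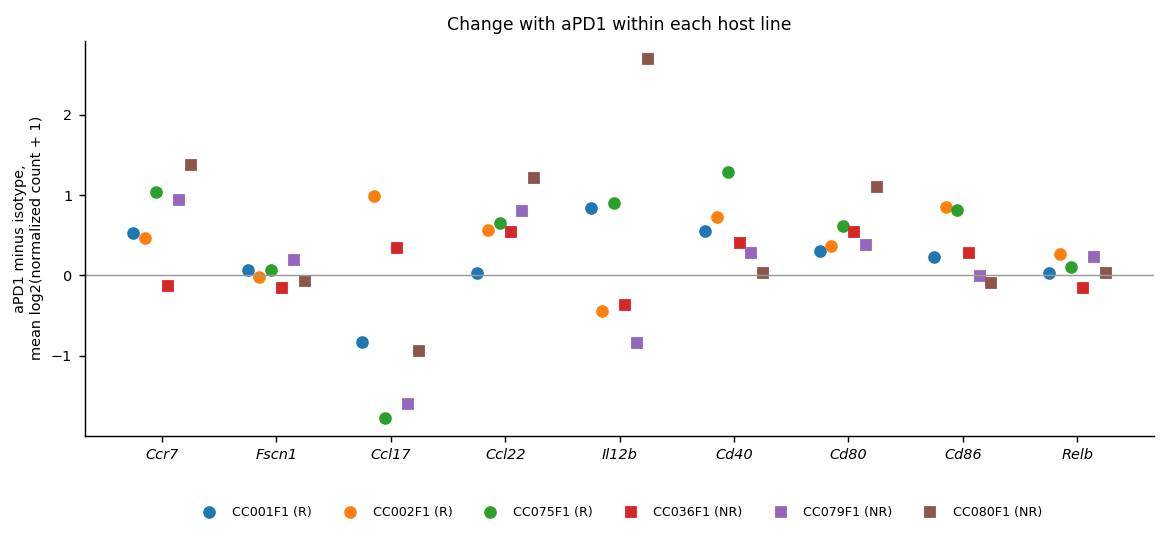
Change of each gene with aPD1 within each host line, as the difference of mean log2(normalized count + 1) (vertical axis) by gene; circles are R lines and squares NR lines. Cd40, Cd80 and Ccl22 lie above 0 in all 6 lines, Cd86 in the 3 R lines and CC036F1, and Fscn1 and Relb lie near 0; the CC080F1 point of Il12b (2.69) rests on 1 isotype tumor at 0 counts and 1 aPD1 tumor.

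The T cell partners of these proteins were measured too. Cd28 was called higher in R over all tumors (log2 difference 0.94, adjusted p = 7.74e-04) and in aPD1 tumors (1.11, adjusted p = 0.0135). Ctla4 was called higher with aPD1 in R lines in DESeq2 (1.01, adjusted p = 0.00342), where edgeR called 0 of all genes. Each call is 33.3% of this list, beside 7.66%, 5.94% and 4.85% of all genes called higher in these comparisons. Cd40lg, the gene of CD40 ligand, was at most 5.94 in any tumor and was not called.

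Relb (ENSMUSG00000002983; chromosome 7, 19606217 to 19629438, minus strand) ranged from 1065 to 1628 over the 23 tumors, with overlapping groups. Means were 1300 ± 107 in R and 1375 ± 134 in NR tumors, with a log2 difference of -0.08 ± 0.06 (95% interval -0.19 to 0.03, adjusted p = 0.357). The aPD1 difference was 0.13 ± 0.07 in R (adjusted p = 0.396) and 0.04 ± 0.10 in NR lines (adjusted p = 1.00). Of 11 other subunits and regulators of NF-kappa-B, DESeq2 called 1 higher in R over all tumors, Bcl3, a nuclear co-regulator of the pathway (0.47, adjusted p = 0.0363). Bcl3 was also the 1 called after aPD1 in R lines (0.92, adjusted p = 0.0104). In edgeR it passed in neither (adjusted p = 0.0806 and 0.106). This is 9.09% of the list in each, beside 7.66% and 4.85% of all genes called higher. The share between classes was thus near that of all genes. None was lower in any of the 6 comparisons. Nfkb2, the usual partner of RelB, had 0.06 ± 0.05 between classes (adjusted p = 0.500).

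Of 22 other genes of mature dendritic cells, 3 were higher and 2 lower in R over all tumors, with a median of 0.07. Cxcl16, a membrane-bound chemokine (0.59, adjusted p = 1.37e-04), Traf1, an adaptor of TNF receptors (0.22, adjusted p = 0.00222), and Nudt17 (-0.59, adjusted p = 0.00782) passed in DESeq2 and in edgeR, and Cacnb3, a calcium channel subunit (-0.29, adjusted p = 0.0210), and Socs1 (0.36, adjusted p = 0.0385) in DESeq2 only. With aPD1 in R lines 4 rose and 0 fell in DESeq2, with a median of 0.26: Cd83, a surface protein of mature dendritic cells (0.75, adjusted p = 1.53e-05), Cd274, which encodes PD-L1 (1.02, adjusted p = 0.00306), Cxcl16 (0.51, adjusted p = 0.0050) and Socs1, an inhibitor of cytokine signaling (0.51, adjusted p = 0.0345). In NR lines 0 of 22 were called. The 5 called between classes are 22.7% of the list, beside 14.4% of all genes, and the 4 that rose with aPD1 are 18.2%, beside 4.85%. Without the tumors with Glycam1 counts 4 of the 22 were called between classes and 3 with aPD1 in R lines.

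Some markers of dendritic cells, macrophages and T cells were called in some of the same comparisons as Cd40 and Cd86. Whether they varied with Cd40 and Cd86 from tumor to tumor was not tested. Of 9 conventional dendritic cell markers 5 were higher in R over all tumors (median 0.52) and 0 lower. This is 55.6% of the list, beside 7.66% of all genes called higher. These were Sirpa (0.52, adjusted p = 2.39e-07), Irf8 (0.70, adjusted p = 6.76e-05), Itgax (0.75, adjusted p = 0.00102), Xcr1 (1.44, adjusted p = 0.00546) and Batf3 (1.08, adjusted p = 0.00565), and all 5 passed in edgeR as well. Within R lines aPD1 raised Sirpa, Irf8, Itgax and Xcr1 in DESeq2 (44.4% of the list, beside 4.85% of all genes called higher). Flt3 and Zbtb46, the markers held to set conventional dendritic cells apart from macrophages, were not among them: between classes they had -0.28 ± 0.28 and -0.17 ± 0.07 (adjusted p = 0.574 and 0.0896), and with aPD1 in R lines 0.55 ± 0.37 and -0.19 ± 0.11 (adjusted p = 0.502 and 0.408).

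Of 5 macrophage markers, Adgre1 (F4/80) and Csf1r (the M-CSF receptor) were higher in R (0.43 and 0.33, adjusted p = 0.00219 and 0.0390). Adgre1 rose with aPD1 in R lines in DESeq2 (0.45, adjusted p = 0.0207), where edgeR called 0 of all genes. That call was lost without the tumors with Glycam1 counts, where 0 of the 5 markers were called for aPD1 in R lines. The 5 markers, with none at 0 in any tumor, summed to 44830 to 98210 in R isotype, 77030 to 134100 in R aPD1, 41090 to 90970 in NR isotype and 50030 to 79430 in NR aPD1 tumors. The medians in that order were 87060, 84400, 72610 and 66180, so the median sum was not higher with aPD1 in either class. Summed T cell markers (Cd3e, Cd4 and Cd8a) were 369 to 987, 529 to 1792, 119 to 773 and 217 to 617 in the same groups, and Cd3e and Cd8a were higher in R (1.47 and 1.78, adjusted p = 0.00440 and 1.80e-04). These 2 genes are 66.7% of the list, beside 7.66% of all genes called higher. The part of macrophages or of the number of dendritic cells in the Cd40 and Cd86 differences was not tested. The B cell markers, of which Cd79a, Cd79b, Ms4a1 and Igkc were at 0 in 1 or 2 tumors, moved otherwise. They were called in 0 of 5 between classes over all tumors. In DESeq2, 4 of the 5 were lower in R among aPD1 tumors, Cd79a, Ms4a1 and Igkc among them (80.0% of the list, beside 1.99% of all genes called lower). Those calls rested on the tumors with Glycam1 counts: without them none of these 3 genes was called there, and Cd79b was called higher in R in DESeq2 (3.70, adjusted p = 5.65e-06). edgeR called none of these 4 genes in aPD1 tumors with all tumors in the fit. Without the 3 tumors with Glycam1 counts Cd40 and Cd86 were still called between classes over all tumors (0.76 and 0.54), in aPD1 tumors (1.09 and 0.79) and with aPD1 in R lines (0.98 and 0.60).

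Which of the other genes varied with Ccr7 from tumor to tumor was asked by correlating log2(normalized count + 1) over the 23 tumors, with 8 relations tested and two-sided permutation p-values adjusted over them. Ccl22 had a Pearson r of 0.58 and a Spearman rho of 0.63 (permutation p = 0.00331 and 0.00141, adjusted p = 0.0135 and 0.00564). Cd80 had an r of 0.58 and a rho of 0.65 (permutation p = 0.00338 and 9.1e-04, adjusted p = 0.0135 and 0.00564). Both relations held without the 2 tumors farthest from the Ccr7 median, CC080F1 aPD1 replicate 1 and CC079F1 isotype replicate 2 (r = 0.60 and 0.59). They were 0.61 and 0.64 within the 17 deep libraries, 0.41 and 0.36 within the 6 shallow ones, and 0.62 for both without the tumors with Glycam1 counts. Taken as deviations from the mean of each line and antibody they were 0.64 and 0.53.

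Cd40 had an r of 0.47 with Ccr7 and a rho of 0.41 (permutation p = 0.0238 and 0.0511, adjusted p = 0.0633 and 0.136). It was 0.60 without the tumors with Glycam1 counts, and -0.03 as deviations within line and antibody; among tumors of the same group no relation was seen. The r without the 2 farthest tumors was 0.44. The other 5 genes had r from 0.01 (Il12b) to 0.29 (Cd86), with rho from 0.05 (Ccl17) to 0.33 (Fscn1) and the lowest adjusted p at 0.371 for r and 0.240 for rho. Cd40 and Cd86, the genes called between classes, were not among those whose correlation with Ccr7 passed over all 23 tumors; the Cd40 correlation passed without the tumors with Glycam1 counts (adjusted p = 0.0144).

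**Figure D4:**
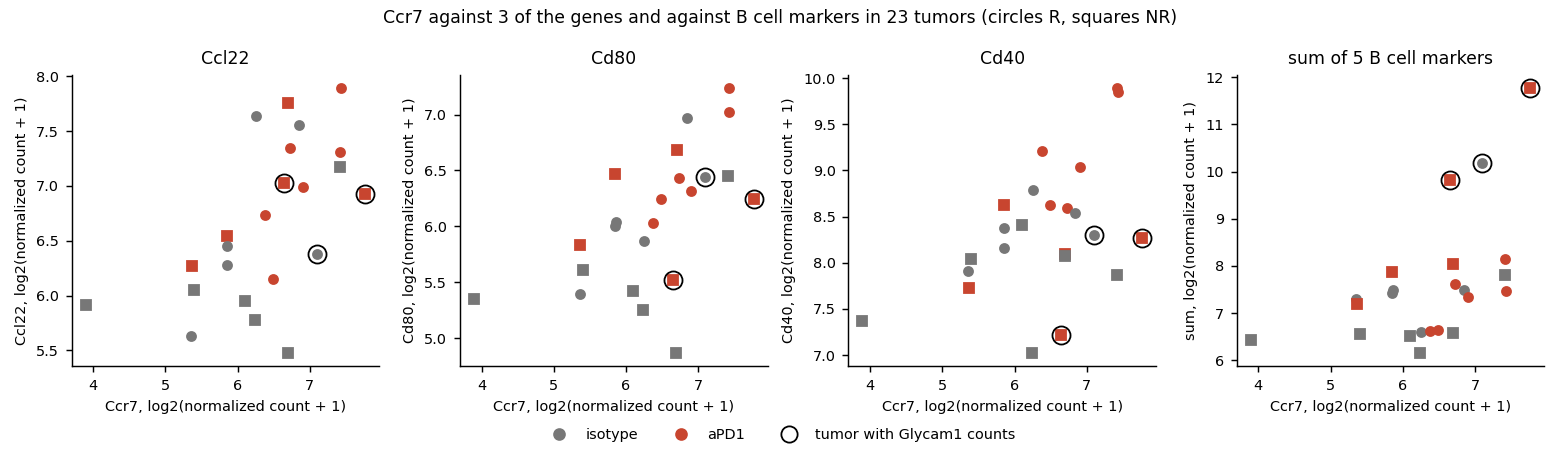
Ccr7 (horizontal axes) against Ccl22, Cd80, Cd40 and the sum of 5 B cell markers (vertical axes), all as log2(normalized count + 1), in 23 tumors; circles are R and squares NR tumors, gray isotype and red aPD1, and black rings mark tumors with Glycam1 counts. Ccl22 and Cd80 rise with Ccr7 (r = 0.58 each), and the 3 ringed tumors stand above all others in B cell markers (897 to 3507 before the log).

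Ranked by likeness to Ccr7 among 14878 other genes (those averaging 20 or more normalized counts), Cd80 was number 126, Ccl22 129, Cd40 615, Cd86 2593, Fscn1 3225, Relb 6597 and Il12b 7311, and Ccl17 was under that mean. The 10 non-member genes most like Ccr7 over the 23 tumors, by Pearson r, were B3gnt5 (0.80), Atp2a3 (0.77), Apol7c (0.76), Ralgps2 (0.74), Fam53c (0.74), Zfpm1 (0.72), Hip1 (0.72), Pde4a (0.71), Fcho1 (0.71) and Hsh2d (0.70). They were picked as the highest of many, so their r values are a description. Without the 3 tumors with Glycam1 counts the same 10 had r from 0.69 (Zfpm1) to 0.81 (Hip1).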

How the data were processed

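Poly(A) RNA of 23 tumors was sequenced as paired reads. The authors mapped them with Bowtie 1.2.3 to founder-strain transcriptomes on GRCm38 and estimated counts with gbrs. As deposited, values are expected counts per gene, with shared reads split and no scaling for depth; 16.95% were not whole, and they were rounded. GENCODE vM21 named 26681 of 26869 identifiers.

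Groups came from the labels and the class of a line from the study's text. The members and lists were chosen with earlier results of these data known. Tests were DESeq2 1.42.0 (R 4.3.3) Wald tests of genes with at least 5 counts summed over the fit, with Benjamini-Hochberg adjusted p under 0.05 called. R against NR fits treat tumors of a line as independent. Nothing in the labels says more of how replicates arose, so p-values measure the spread between these tumors. Replicate pairs differed by far more than counting noise (chi-square per degree of freedom 9.16 to 123). Normalized counts used median-ratio size factors over all tumors.

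Besides the 9 genes, the text names those of each list called for R against NR over all tumors or for aPD1 in R lines, at most 4 per list with the smallest adjusted p, and defining markers; a few more stand beside a count of 5 or fewer. Alternatives were edgeR 4.0.16, limma 3.58.1 with a random line effect, other size factors and filters, deep libraries, summed counts per line, a replicate block and each tumor left out. Scripts were tested on simulated data.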

Additional observations from a re-analysis of the deposited data

Results flagged for a closer look

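In each of the 4 groups of class and antibody, every gene was searched for a highest or lowest tumor whose gap to the next, divided by the range of the group, was above Dixon's 95% critical value. Of 36 such groups 3 were flagged, and chance flags about 1 in 20. CC036F1 isotype replicate 2 was far above the other 5 NR isotype tumors in Ccl22 (143 against 65.2 for the next) and in Cd80 (86.6 against 47.8). The same tumor had the highest Ccr7 of its group (170). CC002F1 isotype replicate 1, one of the 3 tumors with Glycam1 counts, had the lowest Relb of the R isotype tumors (1065 against 1268 for the next). For none of the 9 genes did the aPD1 effect differ between R and NR lines by the test of that difference, or have opposite signs in every line of the 2 classes.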

How the results depend on the processing

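Of the 9 genes, leaving out each tumor gave 2 to 3 called for R against NR over all tumors, 0 to 1 in isotype tumors, 2 to 3 in aPD1 tumors, 1 to 3 for aPD1 in R lines, 0 in NR lines and 0 to 1 for the difference of effects. limma with a random line effect called 0 of 9 in aPD1 tumors and edgeR 0 of 9 for aPD1 in R lines. Under the other planned fits the counts of called members stayed within 1.5 times. All genes called fell from 2548 to 1622 in limma, 1209 with counts summed per line and 1668 in deep libraries for R against NR, from 829 to 30 (edgeR), 3 (limma), 315 (summed), 44 (deep) and 402 (without tumors with Glycam1 counts) in isotype tumors, from 1361 to 560 (edgeR) and 199 (limma) in aPD1 tumors, and from 826 to 0 (edgeR) for aPD1 in R lines. For aPD1 in NR lines 11 genes became 5 (edgeR), 7 (TMM and total-count size factors), 4 (filterByExpr), 44 (deep), 101 (without Glycam1 tumors) and 52 (replicate block), and for the difference of effects 9 became 0 (edgeR), 50 (deep), 24 (without Glycam1 tumors) and 121 (replicate block). The smaller fits hold fewer tumors; other causes were not tested.

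Deviations of same-numbered isotype and aPD1 tumors correlated from -0.15 to 0.25 over 5 lines, above 0 in 4 of them. No range expected without pairing was computed, so these values do not settle whether replicate numbers pair the tumors. The replicate block left Cd40 (0.86 between classes, 0.91 with aPD1 in R lines) and Cd86 (0.55 and 0.65) called, changed no call of a member, and turned Fscn1 in NR lines to 0.010.

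Some directions turned. Ccr7 between classes turned to -0.16 in deep libraries over all tumors, and in isotype tumors to -0.003 in edgeR, -0.028 in limma, -0.19 with summed counts, -0.51 in deep libraries and -0.22 without Glycam1 tumors. Without Glycam1 tumors, Ccr7 with aPD1 in NR lines was -0.33, and the difference of effects was -0.18 for Ccl17, 0.023 for Ccl22 and 0.14 for Cd80, which was 0.36 in deep libraries. Fscn1 in aPD1 tumors was 0.002 in limma, 0.029 in deep libraries and 0.015 without Glycam1 tumors, and in NR lines 0.002 in edgeR and with TMM and 0.004 without Glycam1 tumors. In deep libraries Relb was 0.027 in aPD1 tumors and -0.049 in NR lines, and Ccl17 0.17 in R lines. Correlations with Ccr7 turned to -0.089 for Ccl17 in deep libraries, -0.048 for Il12b without Glycam1 tumors, and -0.27 for Il12b, -0.025 for Cd40 and -0.21 for Relb as deviations within groups. That of Cd40 passed without Glycam1 tumors (0.60). The cause was not tested.

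Leaving out each tumor gave ranges across 0 in isotype tumors for Ccr7 (-0.22 to 0.40) and Il12b (-0.046 to 0.37), in aPD1 tumors for Fscn1 (-0.058 to 0.038), Ccl22 (-0.041 to 0.44) and Relb (-0.092 to 0.027), in R lines for Ccl17 (-0.62 to 0.011), in NR lines for Fscn1 (-0.048 to 0.044), Il12b (-0.72 to 0.092), Cd86 (-0.022 to 0.19) and Relb (-0.028 to 0.10), and for the difference of effects for Ccr7 (-0.30 to 0.56), Fscn1 (-0.004 to 0.088), Ccl17 (-0.19 to 0.63) and Cd80 (-0.35 to 0.047). Depth limits Ccl17 and Il12b most, whose counts were at most 95 and 63 in any library.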

Other observations

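Of 6 markers of naive and central memory T cells, 0 were called between R and NR over all tumors. Il7r rose with aPD1 in R lines in DESeq2 (log2 difference 1.07, adjusted p = 0.0323). This is 16.7% of the list, beside 4.85% of all genes called higher. Without the tumors with Glycam1 counts 1 of the 6 was called between classes over all tumors and 2 with aPD1 in R lines. Of 5 fibroblast and endothelial markers, Pecam1, an endothelial adhesion protein, was higher in R over all tumors (0.53, adjusted p = 0.0201) and the other 4 were not called. Of 4 lymph node vessel and stroma markers 0 were called over all tumors, and Glycam1 and Chst4 were at 0 in 20 tumors each. DESeq2 called Glycam1 and Cr2, a complement receptor of B cells and follicular dendritic cells, lower in R among aPD1 tumors, lower with aPD1 in R lines and lower for the difference of the aPD1 effect between R and NR lines (2 of 4 each). No fold is given for Glycam1, since its calls rest on 3 tumors. The log2 differences of Cr2 were -3.33, -2.05 and -4.04 (adjusted p = 2.19e-04, 0.00968 and 0.0109 in DESeq2, 0.0419, 0.107 and 0.347 in edgeR). Without the 3 tumors with Glycam1 counts 0 of the 4 were called in any of the 6 comparisons, and Cr2 had -0.67, -1.41 and -1.63 in the same order (adjusted p = 0.582, 0.0936 and 0.902).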
